A study of Homo sapiens with 3 samples.

Results

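The genes described here are the translation factors, the proteins that start, extend and end the synthesis of a protein on the ribosome. A gene was taken when it had a coding (NM) transcript and a symbol of an initiation factor (EIF1 to EIF6, without the EIF2AK kinases) or of an elongation factor (EEF1 or EEF2), or was ETF1, GSPT1, GSPT2, ABCE1 or PABPC1. This gave 64 of the 19262 coding gene symbols, with 133 NM transcripts. Values are given for 63 of them, since EIF1AY is Y-linked and no level of it is reported. The rule uses symbols and no measured value, though translation factors were proposed as a group with earlier results of these data known.

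Ribosome footprints, RNA fragments shielded by ribosomes from nuclease digestion, were sequenced from HBE, a human bronchial epithelial cell line, and from A549 and H1299, both human lines of non-small cell lung cancer. All 3 lines were grown without treatment, under normal condition in complete DMEM. Each line is represented by 1 library, so a ratio compares 2 libraries, carries no p-value and has no replicate check. The libraries held 43580281 (HBE), 38268527 (A549) and 35751992 (H1299) mapped reads, of which 34505579, 31304697 and 28478839 lay on NM transcripts. Levels are given as footprint reads scaled to 1000000 NM reads of the library (RPM), and levels of different genes are compared per kb of transcript or of coding length, apart from orders and family shares that are named as counts of reads. Intervals are exact 95% intervals that cover counting error alone, and footprints made by PCR without molecular identifiers are not independent molecules.

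Between lines, a ratio was taken relative to the median coding gene with at least 20 reads over both libraries. That median gene lay at a log2 ratio of RPM of 0.35 in A549 against HBE, 0.38 in H1299 against HBE and 0.02 in H1299 against A549, so a value relative to it is lower than the plain ratio by that amount. A gene was called higher or lower when its whole counting interval lay beyond 1.5 times. The most read coding gene, TREML2, held 19.0%, 15.3% and 15.2% of the NM reads of HBE, A549 and H1299. As a background level, the 377 olfactory receptor genes, whose products serve the nose, had a median of 0.583 (HBE), 0.845 (A549) and 0.811 (H1299) RPM per kb, and a 95th percentile of 4.24, 6.13 and 6.15. The part that this higher receptor level in the cancer lines has in the shift of the median gene was not tested.

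The lines were first set against marker lists. The 4 basal airway genes KRT5, KRT14, KRT17 and TP63 summed to 1396, 14.4 and 10.1 RPM in HBE, A549 and H1299. The epithelial genes KRT8, KRT18, EPCAM and CDH1 summed to 3055, 9752 and 1417 RPM, and went different ways. KRT8 (1112, 4895 and 355 RPM) and KRT18 (1283, 4812 and 1057) were highest in A549. EPCAM (527, 17.3 and 2.14) and CDH1 (133, 28.2 and 2.98) were read mainly in HBE. VIM, which encodes the mesenchymal filament protein vimentin, stood at 3.59, 490 and 1534 RPM. None of the 4 surfactant genes of alveolar type II cells passed the receptor level in any line, A549 included. Of the leukocyte genes PTPRC, CD3E and LYZ, 1 of 3 passed it in each line, and the list summed to 28.1, 75.9 and 80.8 RPM. The part of these differences between the lines in the values below was not tested.

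Initiation begins when eIF1, eIF1A, eIF3, eIF5 and the ternary complex of eIF2, GTP and initiator tRNA load onto the small ribosomal subunit, and the cap-binding complex eIF4F brings this assembly to the mRNA. In elongation, eEF1A delivers aminoacyl-tRNA, the eEF1B complex recharges eEF1A with GTP, eEF2 moves the ribosome along and eIF5A relieves stalled ribosomes, until eRF1 and eRF3 release the chain at a stop codon and ABCE1 splits the subunits. Several factors exist as paralogs from separate genes, and the mRNAs of elongation factors and ribosomal proteins are known to begin with a run of pyrimidines, the 5′ terminal oligopyrimidine (TOP) tract, through which the kinase mTOR controls their translation.

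Because paralogs can exchange reads when footprints of about the length of a ribosome are mapped, the first 30 coding bases of the 3 families compared most closely are shown here, read from GENCODE transcripts (GRCh37), 5′ to 3′. Capitals in a paralog mark bases that differ from the first gene of its family, and capitals in the first gene mark the positions at which any paralog differs.
EEF1A1 (chromosome 6, minus strand, first coding base 74229749): atgggAaaggaAaagacTcaTatcaacatT
EEF1A2 (chromosome 20, minus strand, first coding base 62129116): atgggCaaggaGaagacCcaCatcaacatC
EIF4A1 (chromosome 17, plus strand, first coding base 7476160): atgtctgCGAgcCAGgATTCCCGATCcaga
EIF4A2 (chromosome 3, plus strand, first coding base 186501400): atgtctgGTGgcTCCgCGGATTATAAcaga
EIF5A (chromosome 17, plus strand, first coding base 7212955): atggcagaTgaCTtGgaCttcGAGacAgga
EIF5A2 (chromosome 3, minus strand, first coding base 170625595): atggcagaCgaAAtTgaTttcACTacTgga
EIF5AL1 (chromosome 10, plus strand, first coding base 81272406): atggcagatgaTttggacttcgagacagga

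EEF1A2 differs from EEF1A1 at 5 of these 30 bases, EIF4A2 from EIF4A1 at 16, EIF5A2 from EIF5A at 9 and EIF5AL1 from EIF5A at 1. Over the whole coding sequence, none of the 1360 windows of 30 nt of EEF1A2 was found unchanged in EEF1A1, and 13.5% were within the 4 mismatches that the mapping allowed. The values were 0% and 11.2% for EIF4A2 against EIF4A1, 0% and 1.40% for EIF5A2 against EIF5A, and 0% and 24.5% for EIF1B against EIF1. In contrast, 77.1% of the windows of EIF5AL1 were found unchanged in EIF5A and 99.3% of those of EIF3CL in EIF3C. GSPT2 shared 3.83% of its windows with GSPT1, and 73.6% were within 4 mismatches. Reads of EIF5AL1, EIF3CL and GSPT2 are therefore uncertain, since the mapping decided which copy received them. EIF1AX, the X-linked gene of eIF1A, shared 3.72% of its windows with EIF1AY, and 93.8% were within 4 mismatches, so its reads are uncertain too. PABPC3, a gene outside the rule, shared 25.3% of its windows with PABPC1, and 96.4% were within 4 mismatches. The reads of PABPC1 are thus uncertain as well.

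The TOP tract was looked for at the RefSeq transcription start of each gene (RefSeq windows, GRCh38.p14), as a C at the start followed by at least 4 letters that are C or T, on the strand of the gene. The following windows run from 10 bases before the start to 20 bases from it, with the tract in capitals. They show factors with a tract that are called in A549 against HBE below, followed by 3 without one that are called higher in H1299 against HBE. They do not stand for all genes with or without a tract. EIF2A, EIF2D, EIF3D and EIF4B carry a tract and were not called in A549 against HBE. EEF1G, EIF3I, EIF4E, EIF4G1 and EIF4H lack one and were called lower there.
EEF1A1 (chr6:73521013-73521042, minus strand): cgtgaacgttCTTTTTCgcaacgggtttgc
EEF1B2 (chr2:206159885-206159914, plus strand): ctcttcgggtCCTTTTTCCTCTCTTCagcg
EEF2 (chr19:3985444-3985473, minus strand): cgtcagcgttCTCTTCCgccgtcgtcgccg
EIF2S3 (chrX:24054946-24054975, plus strand): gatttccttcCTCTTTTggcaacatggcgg
EIF3F (chr11:7987327-7987356, plus strand): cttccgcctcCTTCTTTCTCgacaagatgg
EIF3K (chr19:38619178-38619207, plus strand): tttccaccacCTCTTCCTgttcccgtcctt
EIF4A2 (chr3:186783567-186783596, plus strand): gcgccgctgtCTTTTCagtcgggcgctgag
EIF4A1 (chr17:7572815-7572844, plus strand): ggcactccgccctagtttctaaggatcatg
EIF6 (chr20:35284698-35284727, minus strand): tggtaagctggtgtgaggggaacctgggag
EIF2S1 (chr14:67360318-67360347, plus strand): gaggttccgcatgcgcggtggagtgagcga

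A tract stood at the start of 12 of the 52 translation factor genes that had a RefSeq window, namely EEF1A1, EEF1B2, EEF2, EIF2A, EIF2D, EIF2S3, EIF3D, EIF3F, EIF3K, EIF3M, EIF4A2 and EIF4B. The same letters stood at the start of 6.36% of 14179 coding genes, of 4.07% of all 35116 windows and of 70.1% of 67 ribosomal protein genes. EEF1A1 thus carries the tract and its paralog EEF1A2 had no window, while EIF4A2 carries it and EIF4A1 does not.

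Translation factors took 1.17% (1.171 to 1.179), 1.12% (1.121 to 1.129) and 1.63% (1.629 to 1.638) of the NM reads in HBE, A549 and H1299. The share was highest in H1299 under each denominator tried, with 0.930%, 0.920% and 1.3% of all mapped reads and 1.92%, 1.65% and 2.38% of the NM reads left without the 10 most read NM transcripts. EEF1A1 alone made up 28.4%, 23.3% and 32.2% of the translation factor reads in HBE, A549 and H1299. The ribosomal protein genes, measured the same way, took 2.72%, 2.52% and 3.38% of the NM reads and stood in the same order of lines. For the translation factors, the place of HBE above A549 in this share rests on EEF1A1, with 3336 RPM in HBE and 2621 in A549. Without EEF1A1 the remaining translation factors took a larger share of the NM reads in A549 than in HBE. With the 10 most read NM transcripts also left out, HBE stayed above A549.

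By reads, EEF1A1 was the first translation factor in each line, and stood at place 14 of all 19262 coding genes in HBE, place 20 in A549 and place 11 in H1299. The reads of HBE placed EIF5A next (822 RPM), EEF2 (714), EEF1G (431), EIF3C (392) and EIF4A1 (390). In A549 EIF4A1 came second with 934 RPM, ahead of EIF5A (930), EEF2 (502), EIF4G2 (388) and EIF3C (356). In H1299 the order after EEF1A1 was EIF4A1 (1041 RPM), EEF2 (904), EIF5A (894), EIF3C (723) and EIF4H (416). These orders count the reads of whole genes and are not corrected for length. On the scale per kb of transcript, HBE had EEF1A1 first (945 RPM per kb), followed by EIF5A (607), EEF1G (278), EEF2 (226) and EIF4A1 (213). A549 had EEF1A1 (743), EIF5A (686), EIF4A1 (510) and EIF3K (344) at the head, and H1299 had EEF1A1 (1489), EIF5A (660), EIF4A1 (568), EIF3K (452) and EIF6 (357). EEF1A1 and EIF5A thus led per kb of transcript in all 3 lines. Per kb of coding length the same genes led, but in A549 EIF5A (2013 RPM) stood above EEF1A1 (1891). The places behind them changed as well, with EIF4H (415) above EEF1G (329) in HBE. Per kb of transcript, 55 of the 63 genes in HBE and 56 in each cancer line lay above the 95th percentile of the olfactory receptors. EEF2K, EIF3CL, EIF4E1B, EIF4EBP2, EIF4EBP3, EIF5A2 and EIF5AL1 lay at or below it in all 3 lines, and EEF1A2 did so in HBE. This scale counts untranslated length, so a place below the receptor level does not show that a gene was at background. Per kb of coding length EEF2K stood at 7.91, 10.9 and 10.5 RPM and EIF4E1B at 7.19, 10.4 and 9.82. The receptors were not measured on that scale.

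**Figure D1:**
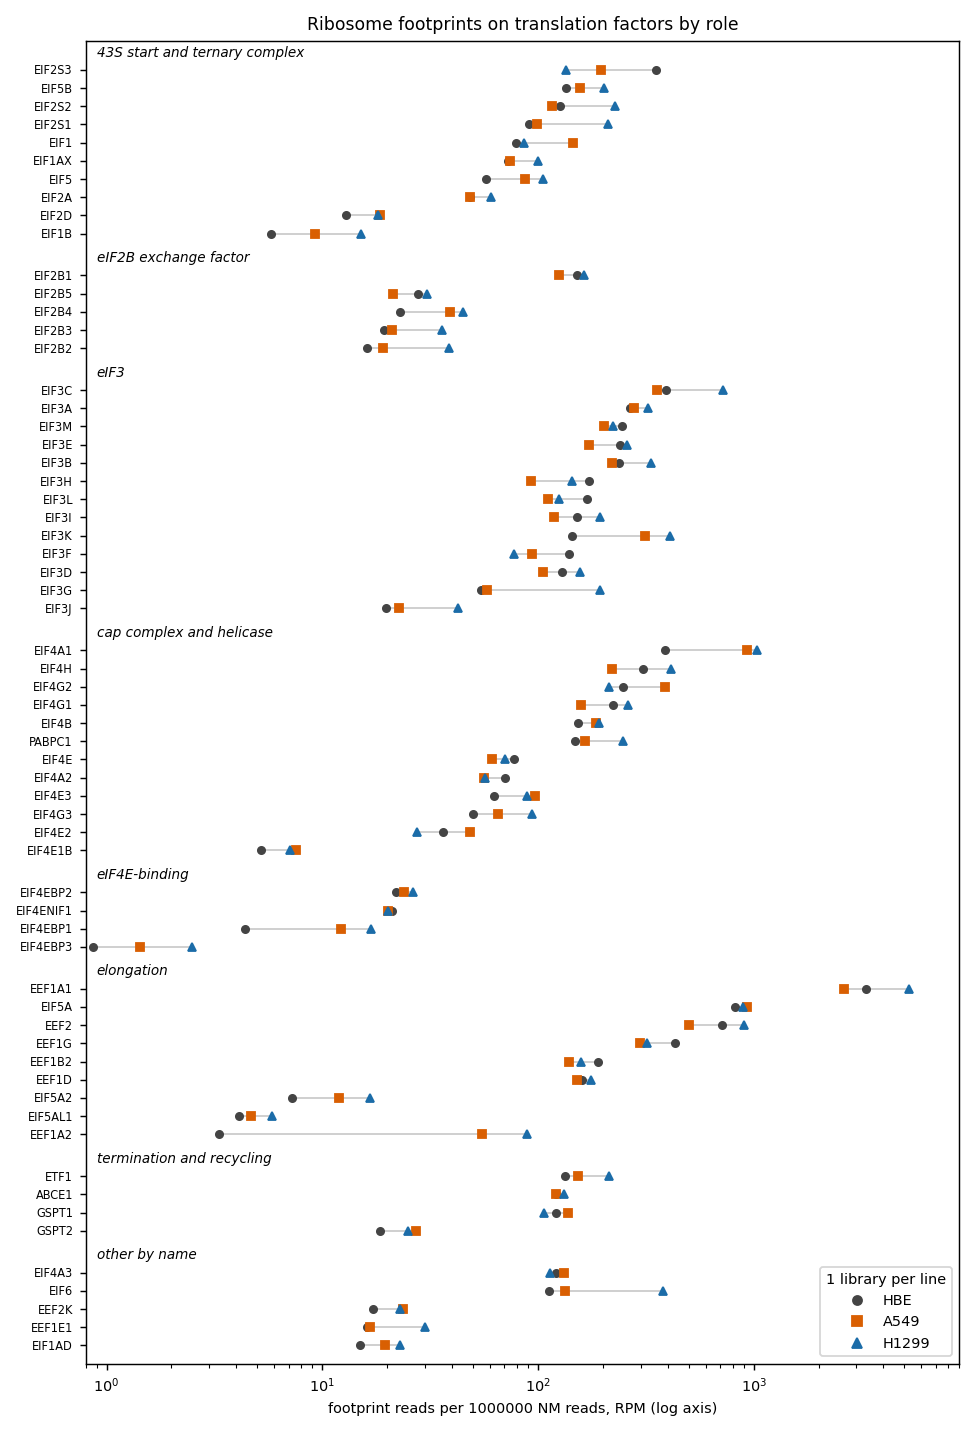
RPM (log axis) of 62 translation factor genes, grouped by role and ordered within a role by their HBE level, with 1 point for each library. EEF1A1 lies farthest right in each line, between 2621 and 5254 RPM, and EEF1A2 has the widest gap between HBE (3.33) and H1299 (89.4). EIF3CL, with 0, 3 and 1 reads, and EIF1AY are not drawn.

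In A549 against HBE, more translation factors were called lower than higher relative to the median gene, and 6 of the lower genes encode subunits of eIF3 and 4 encode elongation factors. Of 62 genes tested, 15 were called lower (24.2%, beside 12.6% of all 18621 tested coding genes) and 4 were called higher (6.45%, beside 6.97%). The median log2 ratio was −0.23 relative to the median gene, but 0.12 in plain RPM, so the direction of this median depends on the scaling. The direction of the counts depends on it too. In plain RPM 7 were called higher (beside 15.5% of all coding genes) and 2 lower (beside 6.63%), the 2 being EIF2S3 and EIF3H. The translation factors were read more deeply than most genes, with a median of 7765 reads over both libraries beside 736 for all tested genes, which narrows their intervals. Among genes with at least 200 reads, 15.5% of all coding genes were called lower and 8.26% higher, beside 15 and 4 of 61 translation factors. With the whole interval beyond 2 times, 1 gene was higher and 2 were lower, beside 3.31% and 5.89% of all coding genes.

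In H1299 against HBE, more translation factors were called higher than lower, and how many more depends on the scaling. Relative to the median gene, called higher were 11 of 62 genes (17.7%, beside 8.66% of 18570), and called lower were 7 (11.3%, beside 14.9%). The median log2 ratio was 0.06 relative to the median gene and 0.43 in plain RPM. In plain RPM 22 were called higher (beside 19.0% of all coding genes) and 2 lower (beside 8.59%), and with edgeR's upper quartile factors 18 and 2 (beside 13.6% and 10.7%). Among genes with at least 200 reads, 10.3% of all coding genes were called higher and 18.3% lower, beside 11 and 7 of 61 translation factors. Beyond 2 times, 6 were higher and 2 lower, beside 4.12% and 8.06% of all coding genes.

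Between the cancer lines, more translation factors were called higher in H1299 than in A549. In H1299 against A549, 15 of 62 genes were called higher (24.2%, beside 9.54% of 18641) and 3 were called lower (4.84%, beside 9.68%), and 48 of 62 lay above the median gene. The median log2 ratio was 0.32 relative to the median gene and 0.34 in plain RPM, and the lower and upper quartiles of all coding genes lay at −0.37 and 0.37. Among genes with at least 200 reads, 11.4% of all coding genes were called higher and 11.7% lower, beside 15 and 3 of 61 translation factors. Beyond 2 times, 3 were higher and 0 lower, beside 3.91% and 4.95% of all coding genes. The comparisons share libraries and are not independent of each other.

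**Figure D2:**
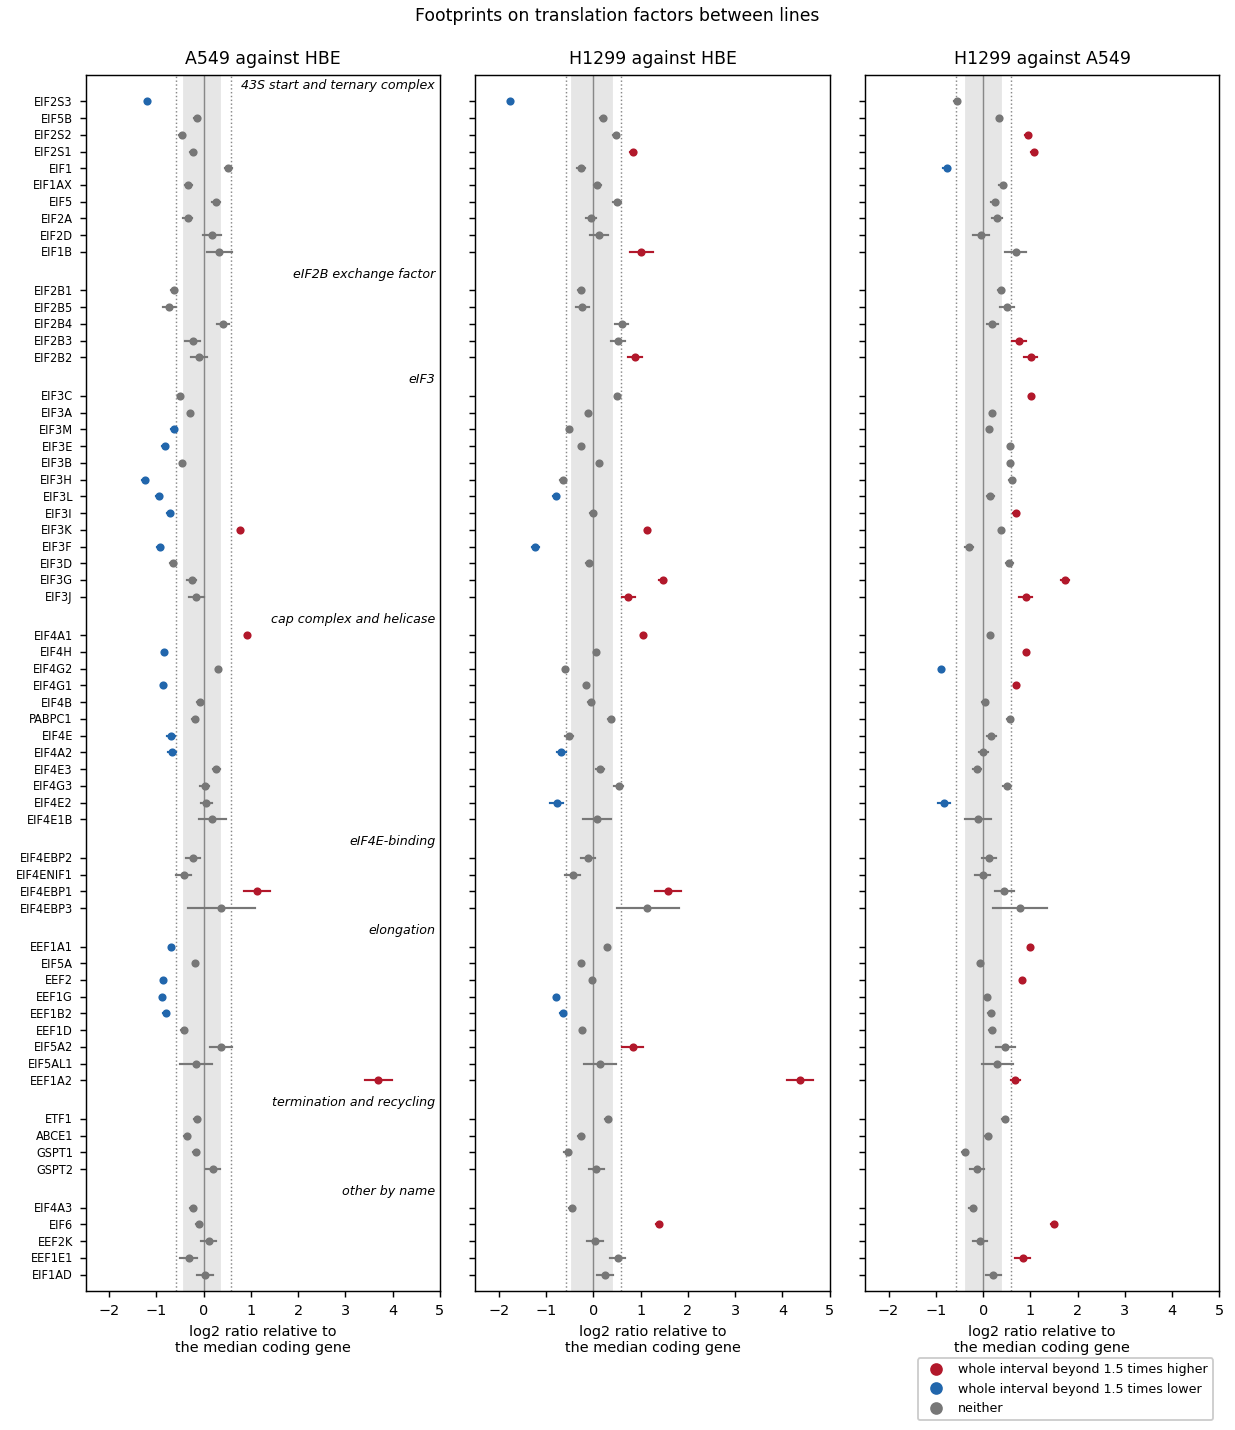
Log2 ratio of 62 translation factor genes between lines relative to the median coding gene, in 3 panels by pair of lines, with bars for the 95% counting interval. Grey shading spans the lower to upper quartile of all tested coding genes, dotted lines mark 1.5 times, and colour marks genes whose whole interval lies beyond it. EIF2S3 and EIF3F lie to the left in both comparisons with HBE, whereas EIF4A1, EIF3K, EIF4EBP1 and EEF1A2 lie to the right.

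The 3 subunit genes of the ternary complex factor eIF2 did not move together. EIF2S3 encodes the gamma subunit, which binds GTP and the initiator tRNA, and had 12114, 6150 and 3840 reads in HBE, A549 and H1299 (351, 196 and 135 RPM). It was therefore highest in HBE and lowest in H1299. Relative to the median gene it was 2.28 times lower in A549 than in HBE (interval 2.21 to 2.35) and 3.38 times lower in H1299 than in HBE (3.26 to 3.51), the largest decrease of all translation factors in that pair. EIF2S1 encodes the alpha subunit, the target of the stress kinases, and had 3133, 3102 and 5999 reads (90.8, 99.1 and 211 RPM). It was 1.79 times higher in H1299 than in HBE (1.71 to 1.87) and 2.10 times higher in H1299 than in A549 (2.01 to 2.19). EIF2S2, the gene of the beta subunit, had 4348, 3652 and 6456 reads (126, 117 and 227 RPM) and was 1.92 times higher in H1299 than in A549 (1.84 to 2.0). EIF2S2 was 1.39 times higher in H1299 than in HBE (1.33 to 1.44), and EIF2S3 was 1.48 times lower in H1299 than in A549 (1.42 to 1.54). Neither of these 2 ratios was called. In H1299 the gamma subunit gene thus moved against the alpha and beta subunit genes, though no single pair had all 3 genes called.

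Per kb of transcript, EIF2S3 stood at 101, 56.4 and 38.7 in HBE, A549 and H1299, EIF2S1 at 21.8, 23.8 and 50.6, and EIF2S2 at 48.6, 45.0 and 87.5. EIF2S3 was the highest of the 3 subunits in HBE and A549 and the lowest in H1299. This change of order also appeared per kb of coding length, with 248, 139 and 95.2 for EIF2S3 beside 96.1, 105 and 223 for EIF2S1. The highest subunit was 4.62 times the lowest in HBE, 2.37 times in A549 and 2.26 times in H1299 per kb of transcript, and 2.58, 1.32 and 2.38 times per kb of coding length, where the spread was narrowest in A549.

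EIF1 and EIF1B encode near relatives of eIF1, which guards the choice of the start codon. EIF1 had 2746, 4559 and 2456 reads (79.6, 146 and 86.2 RPM in HBE, A549 and H1299) and was 1.71 times lower in H1299 than in A549 (1.63 to 1.80). EIF1B had 200, 291 and 432 reads (5.80, 9.30 and 15.2 RPM) and was 2.01 times higher in H1299 than in HBE (1.70 to 2.40). EIF1B accordingly made up 6.79% (5.91 to 7.76), 6.0% (5.35 to 6.71) and 15.0% (13.7 to 16.3) of the reads of the pair in HBE, A549 and H1299, and 8.70%, 7.70% and 18.7% of the pair per kb of transcript. How many reads of EIF1 were placed on EIF1B was not tested. The other factors of this step, EIF1AX, EIF2A, EIF2D, EIF5 and EIF5B, were called in no pair, with log2 ratios relative to the median gene from −0.34 to 0.49.

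The exchange factor eIF2B recharges eIF2 with GTP and is built from 5 subunits. Its genes were read unequally. EIF2B1, the gene of the alpha subunit, stood at 80.6, 66.6 and 87.2 RPM per kb in HBE, A549 and H1299, and the other 4 genes lay between 7.37 and 25.6. The lowest was EIF2B5, which encodes the catalytic epsilon subunit, at 9.56, 7.37 and 10.6. The highest subunit was 8.44, 9.04 and 8.26 times the lowest in these lines, and 13.0, 13.9 and 12.7 times per kb of coding length. Of the 5 genes, EIF2B2 was called higher in H1299 against HBE, with 559, 600 and 1108 reads (16.2, 19.2 and 38.9 RPM) and a ratio of 1.85 (1.67 to 2.05). It was also 2.0 times higher in H1299 than in A549 (1.81 to 2.22), and EIF2B3, with 668, 657 and 1026 reads, was 1.69 times higher (1.54 to 1.87). EIF2B4, with 795, 1219 and 1287 reads, was called in no pair, and in A549 against HBE none of the 5 was called.

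eIF3 is the largest initiation factor and holds the small subunit in a state ready for the mRNA. In A549 against HBE, 6 of its 13 tested genes were called lower (46.2%, beside 12.6% of all coding genes) and 1 higher (7.69%, beside 6.97%). The median log2 ratio was −0.64 relative to the median gene and −0.28 in plain RPM. Of the 6 genes, EIF3H alone was also called lower in plain RPM. EIF3H had the largest decrease, with 5984, 2918 and 4115 reads in HBE, A549 and H1299 (173, 93.2 and 144 RPM), and was 2.38 times lower in A549 than in HBE (2.27 to 2.48). EIF3L had 5813, 3499 and 3585 reads (168, 112 and 126 RPM) and was 1.92 times lower in A549 (1.85 to 2.01) and 1.74 times lower in H1299 (1.67 to 1.81) than in HBE. EIF3F had 4824, 2933 and 2198 reads (140, 93.7 and 77.2 RPM) and was 1.91 times lower in A549 (1.82 to 2.0) and 2.35 times lower in H1299 (2.24 to 2.47). EIF3F and EIF3H encode the subunits of eIF3 with an MPN domain, and both were highest in HBE. EIF3E (240, 173 and 260 RPM), EIF3I (152, 119 and 194) and EIF3M (246, 202 and 223) were the other genes called lower in A549 against HBE. EIF3A (268, 280 and 323 RPM), EIF3B (237, 221 and 333) and EIF3D (129, 106 and 157) were called in no pair.

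EIF3K moved the other way from its neighbours in the complex. It encodes one of the small subunits of eIF3 and had 4952, 9798 and 11706 reads in HBE, A549 and H1299 (144, 313 and 411 RPM), so both cancer lines were above HBE. Relative to the median gene it was 1.71 times higher in A549 (1.65 to 1.77) and 2.21 times higher in H1299 (2.13 to 2.28). EIF3L, whose product pairs with that of EIF3K in the complex, was lower in both. EIF3G encodes an RNA-binding subunit and was high in H1299 alone, with 1871, 1812 and 5545 reads (54.2, 57.9 and 195 RPM). It was 2.77 times higher in H1299 than in HBE (2.62 to 2.92) and 3.32 times higher than in A549 (3.15 to 3.5), the largest ratio of any translation factor between the cancer lines.

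In H1299 against A549, 4 eIF3 genes were called higher (30.8%, beside 9.54% of all coding genes) and none lower (beside 9.68%), with 9 called neither. EIF3C, the gene of a core subunit, had 13540, 11140 and 20599 reads (392, 356 and 723 RPM) and was 2.01 times higher in H1299 than in A549 (1.96 to 2.05). EIF3J, a loosely bound subunit, had 680, 707 and 1219 reads (19.7, 22.6 and 42.8 RPM) and was 1.87 times higher in H1299 than in A549 (1.70 to 2.06). EIF3CL had 0, 3 and 1 reads beside these of EIF3C. A count of 0 allows up to 3 reads. It was not tested, and since nearly all of its coding sequence is that of EIF3C, reads of both genes are counted together under EIF3C.

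Per kb of transcript, EIF3J was the lowest of the 13 eIF3 genes in each line (8.17, 9.36 and 17.7). The highest was EIF3M in HBE (184) and EIF3K in A549 (344) and H1299 (452). The highest gene was 22.5 times the lowest in HBE, 36.7 times in A549 and 25.5 times in H1299, and 8.62, 16.4 and 11.4 times per kb of coding length. The remaining 12 genes of A549 other than EIF3K lay between 9.36 and 151 RPM per kb. Per kb of coding length EIF3K was the highest of the 13 in all 3 lines, with 219, 479 and 629.

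**Figure D3:**
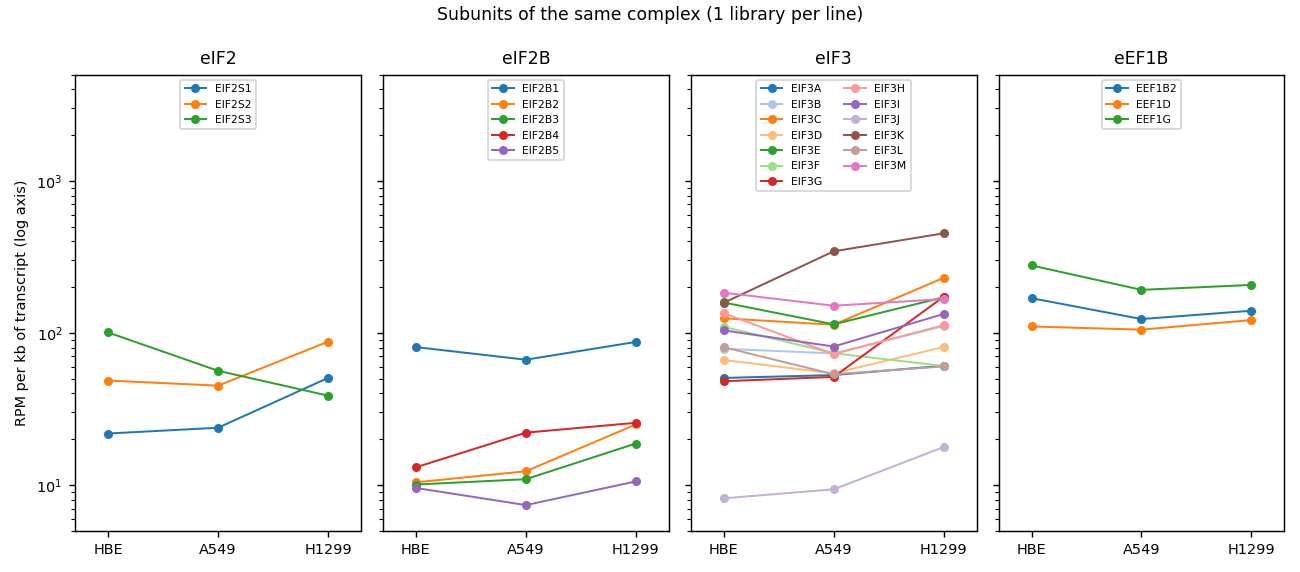
RPM per kb of transcript (log axis) for the subunit genes of eIF2, eIF2B, eIF3 and eEF1B, with 1 point for each library and lines that join the points of 1 gene. The gene of the gamma subunit of eIF2, EIF2S3, falls from 101 in HBE to 38.7 in H1299 and crosses EIF2S1 and EIF2S2, and EIF3K rises above all other eIF3 genes in A549 and H1299.

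Among the genes of the cap-binding complex eIF4F, EIF4A1, which encodes its RNA helicase, had the largest increase in both cancer lines. It had 13456, 29232 and 29654 reads in HBE, A549 and H1299 (390, 934 and 1041 RPM), so that A549 and H1299 lay close together and both above HBE. Relative to the median gene it was 1.88 times higher in A549 (1.84 to 1.91) and 2.06 times higher in H1299 (2.02 to 2.10) than in HBE. EIF4A2, its paralog with the same helicase fold, had 2427, 1761 and 1626 reads (70.3, 56.3 and 57.1 RPM) and was 1.6 times lower than in HBE in each cancer line (1.5 to 1.7 in both). EIF4A2 made up 15.3% (14.7 to 15.9), 5.68% (5.43 to 5.95) and 5.20% (4.95 to 5.45) of the reads of the pair in HBE, A549 and H1299, and 14.8%, 5.48% and 5.01% of the pair per kb of transcript. EIF4H, which stimulates the helicase, had 10654, 6893 and 11851 reads (309, 220 and 416 RPM), and was 1.79 times lower in A549 than in HBE (1.74 to 1.85) and 1.87 times higher in H1299 than in A549 (1.81 to 1.92). EIF4B, the other helicase partner, was called in no pair (154, 186 and 193 RPM).

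The scaffold genes of the eIF4G family changed their proportions between lines. EIF4G1, the scaffold that joins the cap-binding protein, the helicase and the poly(A)-binding protein, had 7724, 4955 and 7413 reads (224, 158 and 260 RPM). It was 1.81 times lower in A549 than in HBE (1.74 to 1.87) and 1.62 times higher in H1299 than in A549 (1.57 to 1.68). EIF4G2, also called DAP5, lacks the part that binds the cap-binding protein and had 8536, 12138 and 6067 reads (247, 388 and 213 RPM). It was highest in A549 and was 1.84 times lower in H1299 than in A549 (1.79 to 1.90). EIF4G3 had 1727, 2035 and 2673 reads (50.05, 65.0 and 93.9 RPM) and was called in no pair. Of the reads of the 3 genes, EIF4G1 held 42.9%, 25.9% and 45.9% in HBE, A549 and H1299, and EIF4G2 held 47.5%, 63.5% and 37.6%. The shares per kb of transcript were 36.9%, 21.2% and 40.9% for EIF4G1 and 55.6%, 70.9% and 45.7% for EIF4G2, so that EIF4G2 was the higher in each line and its lead was widest in A549.

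The cap-binding protein itself is encoded by EIF4E. It had 2682, 1928 and 2006 reads (77.7, 61.6 and 70.4 RPM) and was 1.61 times lower in A549 than in HBE (1.52 to 1.71), with a log2 ratio of −0.52 in H1299 against HBE that was not called. EIF4E2, the gene of a cap-binding relative that represses translation, had 1255, 1513 and 782 reads (36.4, 48.3 and 27.5 RPM). It was 1.72 times lower in H1299 than in HBE (1.57 to 1.88) and 1.78 times lower than in A549 (1.63 to 1.95). Most of that gap lay in a single transcript, the one of 3416 nt, which held 405, 450 and 17 reads, while the transcript of 1078 nt with most reads held 779, 930 and 678. With only the transcript with most reads counted, the log2 ratio was −0.30 in H1299 against HBE and −0.34 in H1299 against A549. EIF4E3 (2170, 3026 and 2544 reads) and EIF4E1B (180, 237 and 203 reads) were called in no pair, and EIF4E1B stayed below the receptor level per kb of transcript.

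The eIF4E-binding proteins hold eIF4E away from eIF4G until mTOR phosphorylates them. EIF4EBP1 had 151, 382 and 481 reads in HBE, A549 and H1299 (4.38, 12.2 and 16.9 RPM), so HBE was the lowest. It was 2.18 times higher in A549 (1.80 to 2.65) and 2.97 times higher in H1299 (2.47 to 3.59) than in HBE relative to the median gene. EIF4EBP2 had 756, 748 and 749 reads and EIF4EBP3 had 30, 45 and 71, and neither was called. Both lay at or below the receptor level per kb of transcript in each line, and EIF4EBP2, with a transcript of 7531 nt and a coding sequence of 360 nt, stood at 60.9, 66.4 and 73.1 RPM per kb of coding length. Of the reads of the 3 genes, EIF4EBP1 held 16.1% (13.8 to 18.6), 32.5% (29.8 to 35.3) and 37% (34.3 to 39.7) in HBE, A549 and H1299, and per kb of transcript 54.9%, 73.0% and 73.6%. The shares per kb of transcript depend on the long transcript of EIF4EBP2. Per kb of coding length EIF4EBP1 stood at 12.4, 34.5 and 47.7 RPM, below EIF4EBP2 in each line. EIF4ENIF1, which encodes the transporter that carries eIF4E into the nucleus, had 728, 630 and 575 reads (21.1, 20.1 and 20.2 RPM) and was called in no pair. PABPC1, the cytoplasmic poly(A)-binding protein, had 5102, 5173 and 7052 reads (148, 165 and 248 RPM), with log2 ratios of −0.19, 0.37 and 0.57 in A549 against HBE, H1299 against HBE and H1299 against A549, none of them called. PABPC3, whose windows resemble those of PABPC1 as given above, had 1807, 1805 and 2156 reads. How many of these belong to PABPC1 was not tested.

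Elongation rests on eEF1A. EEF1A1 had 115095, 82044 and 149625 reads in HBE, A549 and H1299, which is 3336, 2621 and 5254 RPM. H1299 was thus the highest and A549 the lowest. Relative to the median gene EEF1A1 was 1.63 times lower in A549 than in HBE (1.61 to 1.64) and 1.98 times higher in H1299 than in A549 (1.96 to 2.0), while the log2 ratio of 0.28 in H1299 against HBE was not called. EEF1A2 is the isoform known from neurons and muscle, where it takes the place of EEF1A1. It had 115, 1720 and 2545 reads in HBE, A549 and H1299 (3.33, 54.9 and 89.4 RPM). Relative to the median gene it was 12.9 times higher in A549 (10.7 to 15.7) and 20.6 times higher in H1299 (17.1 to 25.1) than in HBE, the largest ratios of any translation factor in these 2 comparisons, and 1.61 times higher in H1299 than in A549 (1.51 to 1.71).

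In HBE, EEF1A2 stood at 1.65 RPM per kb, below the 95th percentile of the olfactory receptors (4.24), and in A549 and H1299 at 27.2 and 44.2, above it (6.13 and 6.15). Its reads in HBE are 0.10% of those of both genes (0.0824 to 0.120), beside 2.05% in A549 (1.96 to 2.15) and 1.67% in H1299 (1.61 to 1.74). EEF1A1 had more reads in HBE than in A549 while EEF1A2 had fewer, and how many reads of EEF1A1 were placed on EEF1A2 was not tested. Per kb of transcript EEF1A2 was 0.174%, 3.53% and 2.88% of the pair, so that EEF1A1 was the main eEF1A gene by footprints in each line.

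Of the genes of eEF1B, the exchange factor of eEF1A, 2 of 3 were lower in A549 than in HBE, and so was EEF2. EEF1G, the gene of the gamma subunit of eEF1B, had 14879, 9324 and 9141 reads (431, 298 and 321 RPM) and was 1.85 times lower in A549 (1.80 to 1.90) and 1.74 times lower in H1299 (1.70 to 1.79) than in HBE. EEF1B2, the gene of a catalytic subunit, had 6586, 4355 and 4494 reads (191, 139 and 158 RPM) and was 1.75 times lower in A549 (1.69 to 1.82) and 1.57 times lower in H1299 (1.51 to 1.63). EEF1D, the gene of the other catalytic subunit, had 5521, 4776 and 5025 reads (160, 153 and 176 RPM) and was called in no pair. HBE was hence above both cancer lines for EEF1G and EEF1B2 but not for EEF1D. Per kb of transcript the 3 genes lay within 2.52 times of each other in HBE, 1.83 times in A549 and 1.70 times in H1299. EEF2, the translocase, had 24646, 15710 and 25748 reads (714, 502 and 904 RPM), and was 1.82 times lower in A549 than in HBE (1.78 to 1.85) and 1.78 times higher in H1299 than in A549 (1.74 to 1.81).

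EIF5A, the carrier of the amino acid hypusine, was called in no pair, with 28365, 29112 and 25474 reads (822, 930 and 894 RPM) and log2 ratios of −0.17, −0.25 and −0.07 relative to the median gene. Its paralog EIF5A2 had 250, 373 and 476 reads (7.25, 11.9 and 16.7 RPM) and was 1.78 times higher in H1299 than in HBE (1.52 to 2.08). EIF5A2 held 0.869% (0.765 to 0.984), 1.26% (1.14 to 1.39) and 1.82% (1.66 to 1.99) of the family reads in HBE, A549 and H1299, and per kb of transcript it stayed below the receptor level (1.31, 2.15 and 3.02). Its transcript of 5537 nt holds a coding sequence of 459 nt. Per kb of coding length EIF5A2 stood at 15.8, 26.0 and 36.4 RPM. EIF5AL1 had 142, 147 and 167 reads, and most of its windows cannot be told from those of EIF5A.

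**Figure D4:**
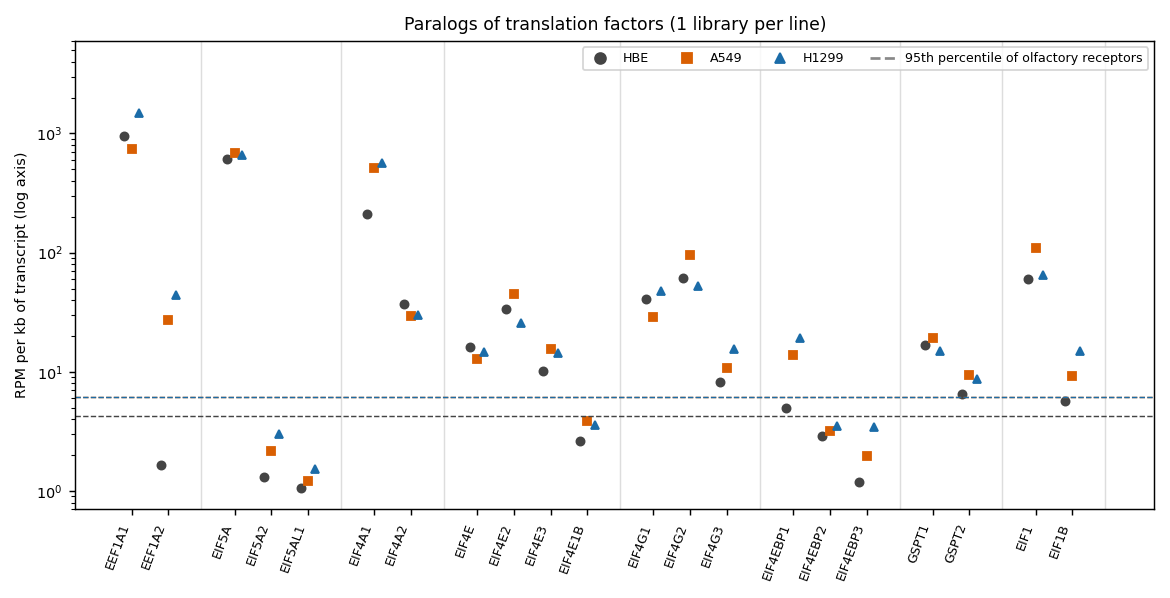
RPM per kb of transcript (log axis) of the paralogs of 8 translation factor families, with 1 point for each library and dashed lines at the 95th percentile of the olfactory receptors (4.24, 6.13 and 6.15 in HBE, A549 and H1299). EEF1A2 lies below the line of its library in HBE and above it in A549 and H1299, and EIF5A2, EIF5AL1, EIF4E1B, EIF4EBP2 and EIF4EBP3 lie below in each library.

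None of the 4 genes of termination and recycling was called in any pair. ETF1, the gene of eRF1, which reads the stop codon, had 4601, 4823 and 6089 reads (133, 154 and 214 RPM). GSPT1, the gene of the GTPase eRF3a, had 4165, 4312 and 3051 reads (121, 138 and 107 RPM), with a log2 ratio of −0.55 in H1299 against HBE. ABCE1, which recycles the ribosome, had 4180, 3784 and 3750 reads (121, 121 and 132 RPM). GSPT2, the gene of eRF3b, held 13.3% (12.3 to 14.3), 16.4% (15.4 to 17.5) and 18.9% (17.7 to 20.2) of the reads of the GSPT pair in HBE, A549 and H1299, within the limit on near-identical windows given above. Their log2 ratios relative to the median gene ranged from −0.55 to 0.45 over the 3 pairs.

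Some genes with a factor's name act elsewhere. EIF6 encodes a protein that keeps the large ribosomal subunit from joining too early, and it was high in H1299 alone, with 3866, 4181 and 10832 reads in HBE, A549 and H1299 (112, 134 and 380 RPM). It was 2.61 times higher in H1299 than in HBE (2.52 to 2.71) and 2.81 times higher than in A549 (2.71 to 2.91). EEF1E1, the gene of a scaffold protein of the tRNA synthetase complex, had 559, 520 and 856 reads (16.2, 16.6 and 30.1 RPM) and was 1.79 times higher in H1299 than in A549 (1.6 to 2.0). EIF4A3, a helicase of the exon junction complex, EEF2K, the kinase of eEF2, and EIF1AD were called in no pair.

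The 12 genes with a TOP tract at the RefSeq start were set beside the 40 with a window and without one. The 11 genes with no window are outside this comparison. Among them are EIF3E, EIF3H and EIF3L, called lower in A549 against HBE, and EEF1A2 and EIF4EBP1, called higher. For A549 against HBE, 7 of 12 were called lower and 1 higher, with a median log2 ratio of −0.66 relative to the median gene, beside 5 lower and 1 higher of 40 and a median of −0.16. Of all 13798 tested coding genes with a window, 12.9% were called lower and 6.73% higher. The 1 higher gene with a tract was EIF3K. In H1299 against HBE the medians were −0.08 with and 0.10 without a tract, and in H1299 against A549 0.15 and 0.32. The ribosomal protein genes with a tract, 47 in number, had medians of −0.47, −0.18 and 0.30 in the same 3 comparisons, and the other coding genes with a tract, 843 in number, −0.06, −0.04 and −0.02. Of the latter, 14.9% were called lower and 6.38% higher in A549 against HBE. With a tract allowed to begin within 2 bases of the start, 16 genes carried one, and their medians were −0.49, −0.10 and 0.12. No test was made of these differences, and a tract in a RefSeq window is a match of letters and not a measured transcription start in these lines.

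**Figure D5:**
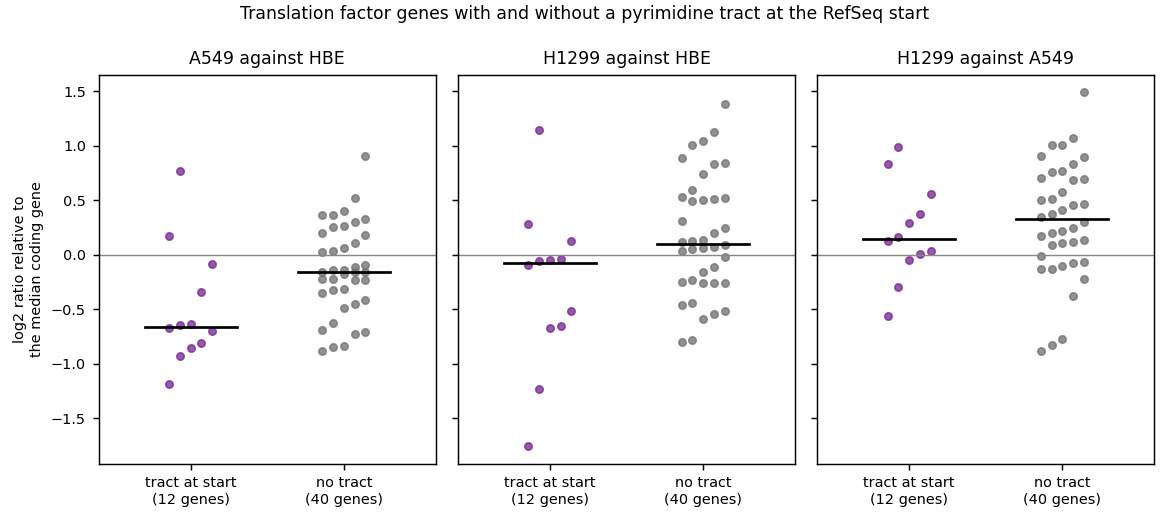
Log2 ratio relative to the median coding gene for the 12 translation factor genes with a pyrimidine tract at the RefSeq start and the 40 without one, in 3 panels by pair of lines. Each point is a gene, its sideways position has no meaning, and black lines are medians. In A549 against HBE the medians are −0.66 with and −0.16 without a tract, and the sets of points overlap in each panel.

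Genes that act on these factors without bearing their names were described from 7 lists of 53 genes. For A549 against HBE, 1 of the 53 was called higher and 10 lower (18.9%, beside 12.6% of all coding genes and 15.5% of those with at least 200 reads), with a median of −0.33. For H1299 against HBE, 2 were called higher and 13 lower (24.5%, beside 14.9% and 18.3%), with a median of −0.09. For H1299 against A549, 7 were called higher (13.2%, beside 9.54% and 11.4%) and 2 lower, with a median of 0.09. Of the eIF2 kinases, EIF2AK1 (2906, 2566 and 1578 reads in HBE, A549 and H1299), EIF2AK2 (2607, 2466 and 1665) and EIF2AK3 (524, 469 and 295) were called lower in H1299 against HBE, with log2 ratios of −0.98, −0.75 and −0.93. EIF2AK4, the kinase activated by uncharged tRNA, was lower in A549 against HBE (−0.77) and higher in H1299 against A549 (0.79). Each of the 4 kinases phosphorylates the product of EIF2S1, which was higher in H1299 as given above.

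In the mTOR list, MTOR was higher in H1299 than in HBE (1.04), RPS6KB1, a kinase of ribosomal protein S6, was higher in A549 than in HBE (0.85), and RPS6KB2 was lower in H1299 than in HBE (−1.06). MKNK2, a kinase of eIF4E, was lower than in HBE in A549 (−1.21) and H1299 (−1.14), and so was PDCD4, an inhibitor of the eIF4A helicase (−0.85 and −0.77). EIF4A1 and PDCD4 therefore moved in opposite directions in both cancer lines. PAIP1, which binds poly(A)-binding protein and stimulates translation, was lower in both (−1.12 and −1.21). PAIP2B was lower in H1299 against HBE (−2.10) and against A549 (−1.56), and PABPC4 was lower in A549 against HBE (−1.23) and higher in H1299 against A549 (1.34).

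DHX29, a helicase for structured leaders, was lower in H1299 than in HBE (−0.85) and A549 (−0.95), and ABCF1 was lower in A549 than in HBE (−0.75) and higher in H1299 than in A549 (1.14). Neither DHPS nor DOHH, the enzymes that make hypusine on eIF5A, was called in any pair, and of the DPH genes, which make diphthamide on eEF2, DPH7 alone was called, as higher in H1299 than in A549 (1.15). N6AMT1, which methylates eRF1, was lower in A549 than in HBE (−1.30) and higher in H1299 than in A549 (1.06), and its partner TRMT112 was lower in H1299 than in HBE (−0.92). PELO, a ribosome rescue factor, was lower than in HBE in A549 (−1.04) and H1299 (−1.21). Its partner HBS1L was higher in H1299 than in A549 (0.76), EEFSEC was lower in H1299 than in HBE (−0.89) and ABCF3 was lower in A549 than in HBE (−0.84). Among the 9 mitochondrial factors, MRRF was lower than in HBE in A549 (−1.08) and H1299 (−1.56), and MTRF1L was higher in H1299 than in HBE (1.15) and A549 (1.05).

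The other parts of the translation machinery were set beside these genes. Of 84 tested ribosomal protein genes, 30 were called lower and 6 higher in A549 against HBE (median −0.42), 14 lower and 10 higher in H1299 against HBE (−0.16), and 8 lower and 26 higher in H1299 against A549 (0.29). Of 35 aminoacyl-tRNA synthetase genes, 7 were lower and 2 higher (−0.26), 6 lower and 8 higher (0.28), and 2 lower and 11 higher (0.39) in the same pairs. These 35 were EPRS and the genes with symbols ending in ARS or ARS2, so cytosolic and mitochondrial enzymes are mixed. The medians of translation factors were −0.23, 0.06 and 0.32, with the background shares of called genes given above for each pair. All these medians are relative to the median gene, and on that scale the 3 groups had their lowest in A549 against HBE and their highest in H1299 against A549. In plain RPM the lowest stayed in A549 against HBE, but the place of the highest depends on the scaling. In H1299 against HBE and H1299 against A549 the plain medians were 0.43 and 0.34 for translation factors. They were 0.66 and 0.41 for the synthetases, and 0.21 and 0.31 for the ribosomal proteins.

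Several translation factor genes have more than 1 coding transcript, and the reads were counted for each of them. Of 26 such genes, 18, 19 and 18 had over 90% of their reads on a single transcript in HBE, A549 and H1299. Reads that fit several transcripts of a gene were placed on 1 of them, so these shares describe the mapping and are not the use of isoforms. EIF3C, with 5 NM transcripts, had 13441, 11057 and 20499 of its reads on the transcript of 3145 nt.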

How the data were processed

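The 3 lung lines gave 1 library of ribosome footprints each. Per the study's methods, rRNA was removed from them by Ribo-Zero and then by biotinylated probes, libraries were built with NEBNext small RNA reagents, and reads were trimmed of adapters, truncated at the first base with a Phred quality below 10 and mapped with FANSe2 to RefSeq RNA, allowing up to 4 errors (no FANSe2 version is given there). The submitters' notes name hg19. The deposited values are a whole-number read count for each of 47239 transcripts, left without normalization by the authors, and the matching RPKM, for which the authors divided the count by the whole transcript length and by the sum of all counts. The RPKM of each row was recomputed from its count as a check and was not used further. Strand is not mentioned for the counting, so reads of a gene and its antisense partner cannot be told apart.

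Counts of NM transcripts were summed per gene symbol (12 NM rows without a symbol went into the totals only) and scaled to 1000000 NM reads of the library (RPM). Per kb values used the length of the NM transcript with most reads. Log2 ratios had 0.5 read added to each count and required 20 reads over both libraries. Their exact conditional (Clopper-Pearson) 95% intervals came from scipy 1.17.1, with pandas 2.3.3, numpy 2.4.6 and matplotlib 3.10.9 under Python 3.11.15. Normalization factors for the alternatives came from edgeR 4.0.16 in R 4.3.3, which was used for nothing else because 1 library per line allows no test. The calling rule was tried on simulated counts that held counting error alone. That trial cannot show how the rule does with spread between cultures or with PCR duplicates. Coding sequences came from GENCODE 44 lifted to GRCh37 and start windows from RefSeq, GRCh38.p14.

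The group of genes, its symbol rule and the lists were chosen with earlier results of these data known, and the rule itself reads no measured value. Full values are given for the 6 genes with most reads in each library, the 8 called genes with the largest ratio in each pair, and the paralog families and complexes. Other called genes were named after their values were seen.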

Additional observations from a re-analysis of the deposited data

Results flagged for a closer look

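Non-coding (NR) transcripts named after translation factors were in none of the comparisons, and 5 of them had more than the 3 reads that a count of 0 allows in each library. PABPC1P2, a pseudogene named after PABPC1, had 744, 486 and 923 reads in HBE, A549 and H1299. EEF1DP3 had 42, 35 and 51 reads and EIF3IP1 had 11, 13 and 11. The antisense transcripts EIF1B-AS1 and EIF3J-AS1 had 49, 55 and 71 reads and 132, 90 and 95 reads. Reads on a pseudogene or an antisense transcript can belong to the gene it resembles or overlaps, and this was not tested.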

How the results depend on the processing

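No paired analysis was possible because a line has a single library. In A549 against HBE, 7 translation factors were called higher and 2 lower in RPM without the median gene as reference, and 1 and 2 with the interval required beyond 2 times. In H1299 against HBE the counts were 22 higher and 2 lower in RPM, 18 and 2 with upper quartile factors, and 6 and 2 beyond 2 times. In H1299 against A549 they were 3 and 0 beyond 2 times. The other 42 of 54 counts stayed within 1.5 times, and the 18 medians, all taken relative to the median gene, ranged from −0.24 to −0.18, from 0.05 to 0.10 and from 0.29 to 0.34 in the 3 pairs. Of 1485 ratios of single genes, 1207 stayed within their counting interval, 278 moved beyond it and 0 changed the sign of a call. Translation factors held 0.930%, 0.920% and 1.3% of all mapped reads in HBE, A549 and H1299, and 1.92%, 1.65% and 2.38% of the NM reads without the 10 most read NM transcripts. Per kb of transcript, the shares within the family in HBE, A549 and H1299 were 0.174%, 3.53% and 2.88% for EEF1A2, 0.215%, 0.312% and 0.454% for EIF5A2, 27.7%, 33.0% and 36.9% for GSPT2, and 8.70%, 7.70% and 18.7% for EIF1B. The share of GSPT2 depends on the longer transcript of GSPT1. On coding length GSPT2 stood at 9.81, 14.4 and 13.3 RPM per kb, beside 63.2, 72.1 and 56.1 for GSPT1. Per kb of coding length, chosen after seeing the data because the planned coding length from RefSeq proteins was not run, the highest subunit was 2.58, 1.32 and 2.38 times the lowest for eIF2, 13.0, 13.9 and 12.7 times for eIF2B and 8.62, 16.4 and 11.4 times for eIF3 in HBE, A549 and H1299. It was not run for eEF1B, where the coding length of EEF1D belongs to another isoform. The tract within 2 bases was also chosen after seeing the data. The cause of these moves was not tested, apart from the denominators and lengths that define them. Depth limits EIF3CL, EIF4EBP3 and EEF1A2 in HBE most.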
